A study of Rattus norvegicus with 10 samples.

Results

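The genes described are those of the epidermal growth factor receptor, Egfr, and 4 of its ligands, Areg, Ereg, Hbegf and Tgfa, in the gastric mucosa of Sprague Dawley rats dosed with NSAIDs, the cyclooxygenase inhibitors known as non-steroidal anti-inflammatory drugs. They are 5 of the 32623 Ensembl identifiers counted, taken by identifier and kept only where the chromosome in the files was the one stated for the gene. The study took RNA 4 h after a drug was given by mouth, from 2 libraries in each of 5 groups, 10 in all. In the first group an intraperitoneal dose of 40 mg/kg of honokiol, a magnolia lignan, preceded indomethacin at 48 mg/kg by 30 min. The others received indomethacin alone at 48 mg/kg, diclofenac at 75 mg/kg or aspirin at 400 mg/kg, and the control labels name no treatment. The time label of the honokiol group is 0.5 h, which equals the lead of honokiol and was read as that lead, so its sampling at 4 h rests on the general protocol. The ages of the animals are not in the labels used here. Groups on honokiol without indomethacin, or on vehicle, were not analysed here, so an effect of honokiol without the drug cannot be told apart from one on the response to indomethacin.

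Ligands of the EGF family are made as precursors in the plasma membrane, and proteases such as ADAM17 cut them free to act on the same or neighbouring cells. The receptor is a tyrosine kinase that dimerises on binding a ligand and signals through the ERK and PI3-kinase cascades, whose immediate outputs include further transcription of several of its own ligands. In the stomach this system is known for driving the migration and division of epithelial cells that close a wound, and for restraining acid secretion.

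The files do not pair identifiers with names, and 0 of the 32623 identifiers matched the RefSeq gene table, so the names rest on the stated pairs and on position. Areg (ENSRNOG00000002754) spans 9250 bases on chromosome 14 in the files, from 18521930 to 18531179 on the minus strand, and the RefSeq gene of that name spans 9258 bases on the same chromosome. Ereg (ENSRNOG00000002771) is the next listed gene, from 18576355 to 18591394 on the minus strand. Hbegf (ENSRNOG00000018646) lies on chromosome 18 from 29329764 to 29340403, also on the minus strand. Tgfa (ENSRNOG00000016182) lies on the plus strand of chromosome 4 from 117962319 to 118046344. Egfr (ENSRNOG00000004332) has 28 listed exons on the plus strand of chromosome 14 from 99919485 to 100098796. All 5 lay on the chromosome that RefSeq gives for the name. No source used here gives the genome build of these coordinates.

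Promoters were read from RefSeq (assembly GRCr8) for 4 of the 5 genes, as 250 bases before to 50 after the start, and those of Areg and Hbegf are shown because they were the ones that held a searched element. The letters searched on both strands were TGANTCA, the site of AP-1 factors, TGACGTCA, the cyclic AMP response element (CRE) bound by CREB and ATF factors, and the shorter TGACG, which lies within the CRE on each strand. The Areg window is chr14:17265592-17265891 and the Hbegf window chr18:28390171-28390470, both on the minus strand. Capitals mark the CRE in Areg and the TGACG in Hbegf.
Areg: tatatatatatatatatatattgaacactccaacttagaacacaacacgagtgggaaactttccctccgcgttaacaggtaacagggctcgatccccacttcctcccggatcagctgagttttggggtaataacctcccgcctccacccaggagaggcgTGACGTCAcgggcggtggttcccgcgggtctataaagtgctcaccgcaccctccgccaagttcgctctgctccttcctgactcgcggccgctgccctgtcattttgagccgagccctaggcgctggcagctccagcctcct
Hbegf: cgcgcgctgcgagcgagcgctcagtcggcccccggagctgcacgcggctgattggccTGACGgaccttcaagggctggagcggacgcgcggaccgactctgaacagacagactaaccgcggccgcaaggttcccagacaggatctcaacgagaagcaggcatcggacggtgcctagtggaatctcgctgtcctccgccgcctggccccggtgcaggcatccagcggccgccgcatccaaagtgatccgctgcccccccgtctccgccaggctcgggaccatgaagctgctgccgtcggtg
The CRE in the Areg window ran from -91 to -84 relative to the start, and the TGACG in the Hbegf window from -193 to -189. The Tgfa and Egfr windows held none of these letters, and TGANTCA was in none of the 4 windows. Of 33469 promoters of the same length, 1.83% held the CRE, 21.2% held TGACG and 7.33% held TGANTCA. A match is a description of the letters and does not show that a factor binds there.

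Libraries held 23892226 to 44977459 counts, and the 5 genes had 3 to 689 counts each in a library. Levels are given as CPM, counts scaled for library size with TMM factors. Reads on 7 Y-chromosome features split the libraries: both honokiol libraries, indomethacin 1 and control 1 held 2733 or more, while the remaining 6 held at most 47. The mitochondrial share of counts was 31.51% and 35.4% with honokiol plus indomethacin, 32.41% and 21.7% with indomethacin, 21.4% and 21.12% with diclofenac, 23.78% and 22.76% with aspirin, and 35.09% and 36.17% in control. The tables of diclofenac and aspirin ended in 2 empty lines and the others in 1, and any difference in handling that goes with this cannot be told apart from these drugs. With mitochondrial features left out of the fit, edgeR called the same genes of the 5 in each of the 3 drug comparisons and in that of honokiol plus indomethacin with indomethacin. The tissue label, gastric mucosa with epithelial cells as the cell type, could not be set against marker genes without names. In bulk tissue, fewer cells of a type and less RNA per cell cannot be told apart. Whether the libraries of a pair are from separate animals is not in the labels. Control 1 and control 2 differed in Y reads, as did indomethacin 1 and indomethacin 2, so these pairs are not from the same animal. In the other groups the spread may be technical, and the p-values speak only of the spread among these libraries.

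Hbegf and Ereg were the ligands that rose, and their levels in the honokiol group overlapped control. By edgeR, 1 of the 5 genes was called with indomethacin (Hbegf), where 0.777% of all tested genes were called. The counts were 2 of 5 (Hbegf and Ereg) with diclofenac, where 7.87% were called, and the same pair with aspirin, where 17.8% were called. All of these calls were higher, a direction in which 0.752%, 4.76% and 9.5% of genes were called. DESeq2 called Hbegf and Ereg with each of the 3 drugs, where it called 2.31% of genes with indomethacin, 11.3% with diclofenac and 19.3% with aspirin. The median log2 fold change of the 5 genes was 1.18 with indomethacin, 0.80 with diclofenac and 0.63 with aspirin, against -0.016, -0.0079 and -0.0011 over all tested genes. Each median is the value of a gene that was not called, Areg with indomethacin and Egfr with diclofenac and aspirin. All 5 passed the low-count filter. These comparisons share the 2 control libraries.

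Hbegf, the heparin-binding ligand that also acts on the related receptor ErbB4, was at 1.07 and 0.674 CPM with honokiol plus indomethacin, 10.4 and 8.89 CPM with indomethacin, 8.82 and 11.3 CPM with diclofenac, 5.11 and 8.69 CPM with aspirin, and 1.48 and 0.668 CPM in control. All 6 libraries of the drugs given alone lay above all 4 of the other libraries. Hbegf had a log2 fold change over control of 3.15 ± 0.39 with indomethacin, 3.22 ± 0.39 with diclofenac and 2.68 ± 0.38 with aspirin (SE, edgeR adjusted p = 0.0055, 0.0017 and 0.0042). Among 16346 tested genes, ordered by log2 fold change from the highest, Hbegf stood at position 156 with indomethacin, 209 with diclofenac and 314 with aspirin. Without control 2 the Hbegf value for indomethacin was 2.71, with an edgeR adjusted p of 0.070, the only 1 of 18 alternatives to end that call. Without control 1 the 3 values were 3.86, 3.94 and 3.41, and each was called. Among libraries with Y reads, a single pair, the log2 ratio of indomethacin to control was 2.81, and among those without it was 3.73. Diclofenac and aspirin, 2 libraries each against the single control without Y reads, had log2 ratios of 3.91 and 3.37.

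Ereg, epiregulin, a ligand of Egfr and ErbB4, was nearly without counts outside the libraries of the drugs given alone. It had 0.291 and 0.225 CPM with honokiol plus indomethacin, 6.75 and 6.88 CPM with indomethacin, 2.50 and 8.31 CPM with diclofenac, 2.13 and 4.95 CPM with aspirin, and 0.600 and 0.1002 CPM in control. The lowest drug library thus lay above the highest of the other 4, and diclofenac 1 and aspirin 1 were the low libraries of their groups. Control 2 rests on 3 counts, with an exact 95% Poisson interval of 0.619 to 8.77 counts that covers counting error only. The Ereg log2 fold change over control was 3.92 ± 0.81 with diclofenac and 3.32 ± 0.81 with aspirin (SE, edgeR adjusted p = 0.028 and 0.029). With indomethacin it was 4.25 ± 0.81 and missed the threshold (SE, edgeR adjusted p = 0.072). Among the 16346 tested genes Ereg stood at position 72 with indomethacin, 135 with diclofenac and 178 with aspirin. DESeq2 called it with all 3 drugs, with adjusted p of 0.00064 for indomethacin, 0.00084 for diclofenac and 0.0050 for aspirin.

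The size of the Ereg change moved with single libraries while its direction was the same in all 18 alternatives. For diclofenac the log2 fold change was 5.73 without control 1 and 3.19 without control 2 (edgeR adjusted p = 0.058 and 0.066), and 2.80 without diclofenac 2 (edgeR adjusted p = 0.055). Aspirin had 5.15 and 2.60 without control 1 and 2 (edgeR adjusted p = 0.060 and 0.080), and 3.79 and 2.57 without aspirin 1 and 2 (edgeR adjusted p = 0.079 and 0.088). Leaving out either indomethacin library ended both calls at edgeR adjusted p of 0.051 to 0.052, with values of 3.95 and 3.92 for diclofenac and 3.36 and 3.32 for aspirin. Without honokiol plus indomethacin 1 or 2, diclofenac had 3.92 and 3.94 (edgeR adjusted p = 0.060 and 0.059) and aspirin 3.32 and 3.36 (edgeR adjusted p = 0.059 for each). With only diclofenac and control in the fit the value was 3.97 (edgeR adjusted p = 0.13). A term for Y reads gave 4.30 with diclofenac and 3.70 with aspirin, with edgeR adjusted p of 0.080 and 0.081. In the other direction, the indomethacin value passed without diclofenac 1 or 2, at 4.27 and 4.25 (edgeR adjusted p = 0.0075 and 0.0072). Within libraries without Y reads the log2 ratio to control was 6.10 with indomethacin, 5.75 with diclofenac and 5.14 with aspirin, and in the pair with Y reads it was 3.49 with indomethacin.

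**Figure D1:**
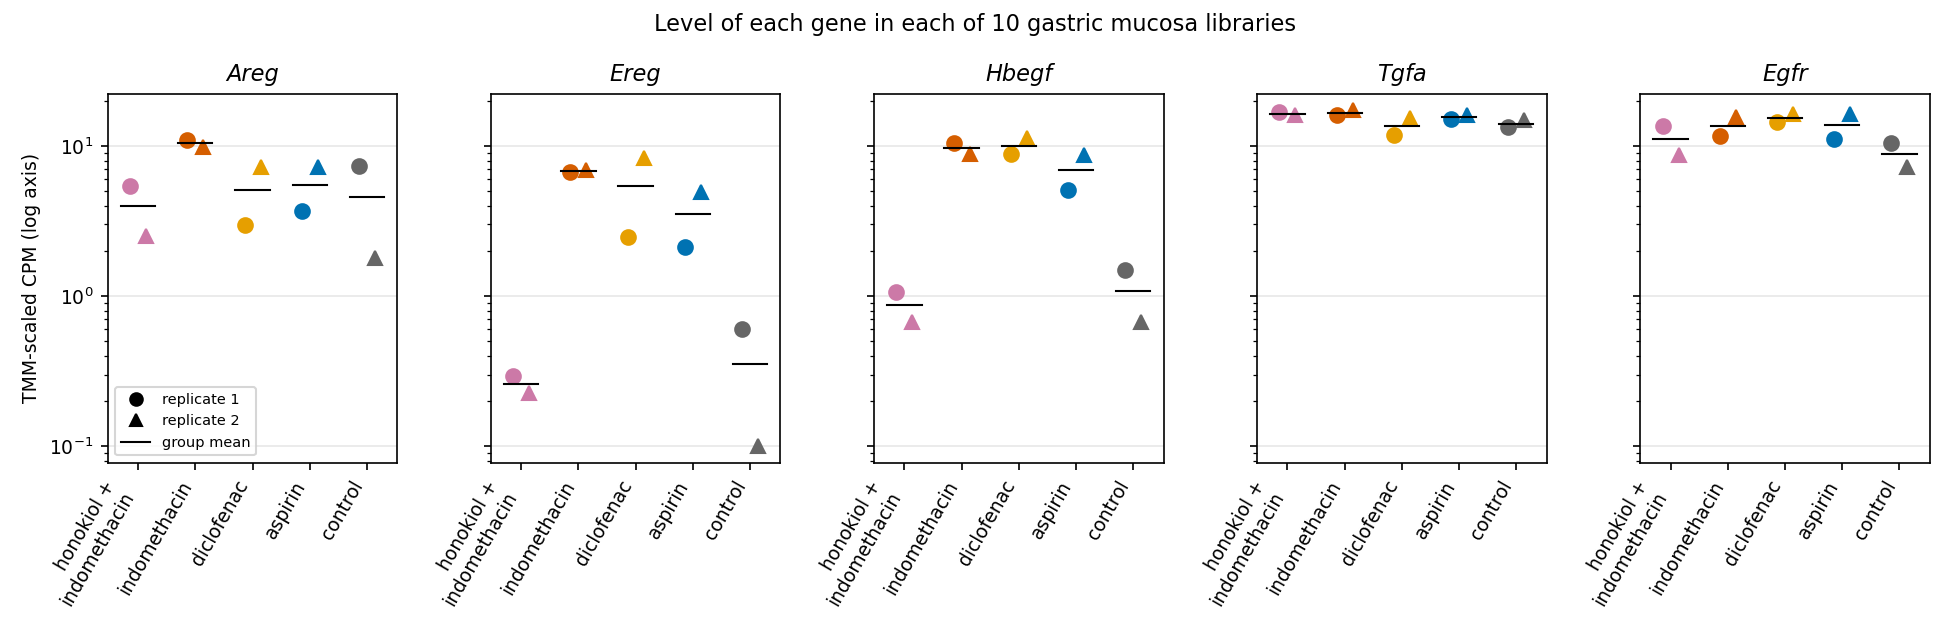
TMM-scaled CPM of each gene (log axis) in the 10 libraries, grouped by treatment, with circles for replicate 1, triangles for replicate 2 and a line at the group mean. Hbegf was at 5.11 CPM or more in every library of a drug given alone and at most 1.48 CPM elsewhere, whereas Tgfa stayed between 11.8 and 17.3 CPM.

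The plot of levels by library shows the contrast between these ligands and the others. Areg, amphiregulin, a ligand that binds Egfr and carries a heparin-binding stretch, was at 5.44 and 2.51 CPM with honokiol plus indomethacin, 11.04 and 9.81 CPM with indomethacin, 2.97 and 7.21 CPM with diclofenac, 3.68 and 7.29 CPM with aspirin, and 7.39 and 1.80 CPM in control. Only the indomethacin libraries lay above both controls, and the controls differed between themselves by a ratio of 4.10. The Areg log2 fold change over control was 1.18 ± 0.73 with indomethacin, 0.14 ± 0.73 with diclofenac and 0.26 ± 0.74 with aspirin (SE, edgeR adjusted p = 0.69, 0.93 and 0.82). With indomethacin the Areg value was 2.55 without control 1 and 0.51 without control 2 (edgeR adjusted p = 0.27 and 0.80). Its 95% intervals with all libraries, in the order of the drugs above, were -0.56 to 2.91, -1.59 to 1.88 and -1.48 to 2.0. Without a filter on low counts edgeR called Areg with indomethacin, at 1.19 ± 0.28 (SE, edgeR adjusted p = 0.00081), and DESeq2 did not (adjusted p = 0.87). The unfiltered fit gave p-values as from a normal distribution, with almost no allowance for having 2 libraries a group. The within-state log2 ratios of indomethacin to control were 0.58 with Y reads and 2.44 without.

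Tgfa, transforming growth factor alpha, the ligand most known from the resting gastric mucosa, was at 16.8 and 16.1 CPM with honokiol plus indomethacin, 16.0 and 17.3 CPM with indomethacin, 11.8 and 15.4 CPM with diclofenac, 15.2 and 16.0 CPM with aspirin, and 13.4 and 14.8 CPM in control. The indomethacin and aspirin libraries lay just above both controls and the diclofenac libraries overlapped them. With plain library totals indomethacin 1, at 13.2 CPM, lay below control 2, at 13.8 CPM. The Tgfa log2 fold change was 0.24 ± 0.19 with indomethacin, -0.05 ± 0.19 with diclofenac and 0.15 ± 0.19 with aspirin (SE, edgeR adjusted p = 0.74, 0.89 and 0.60). The intervals, -0.17 to 0.65, -0.47 to 0.36 and -0.27 to 0.56, lie below the lower limits for Hbegf of 2.31, 2.37 and 1.83, though the difference between the genes was not tested.

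Egfr, the receptor, was at 13.7 and 8.72 CPM with honokiol plus indomethacin, 11.7 and 15.6 CPM with indomethacin, 14.5 and 16.4 CPM with diclofenac, 11.2 and 16.2 CPM with aspirin, and 10.5 and 7.21 CPM in control. Every library of a drug given alone lay above both controls, by a small margin at the low end. The Egfr log2 fold change was 0.62 ± 0.28 with indomethacin, 0.80 ± 0.28 with diclofenac and 0.63 ± 0.28 with aspirin (SE), and none passed the test (edgeR adjusted p = 0.51, 0.099 and 0.13). The 95% intervals were -0.00069 to 1.24, 0.18 to 1.42 and 0.01 to 1.25. Without a filter on low counts edgeR called the diclofenac value, at 0.83 ± 0.25 (SE, edgeR adjusted p = 0.014), with the limit given for that fit under Areg. The log2 ratio of indomethacin to control was 0.15 in the pair with Y reads and 1.11 in the pair without.

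Honokiol before indomethacin was compared with indomethacin, a question the protocol raises by speaking of protection. Hbegf fell, both honokiol libraries being below both indomethacin libraries, with a log2 change of -3.45 ± 0.40 (SE, edgeR adjusted p = 0.0078). It was the only 1 of the 5 genes called, where 0.343% of all genes were called and 0.3% were called lower. Ereg, at -4.70 ± 0.85, missed the threshold (SE, edgeR adjusted p = 0.089), and DESeq2 called it (adjusted p = 0.00024), where DESeq2 called 1.33% of genes. Ordered from the lowest, Ereg and Hbegf stood at positions 23 and 81 of 16346. Areg also had both honokiol libraries below both indomethacin libraries, at -1.38 ± 0.74 (SE, edgeR adjusted p = 0.64). Without a filter on low counts edgeR called Areg here, at -1.41 ± 0.28 (SE, edgeR adjusted p = 4.1e-05), with the limit given above for that fit. The Areg value was -2.06 without honokiol plus indomethacin 1 and -0.94 without honokiol plus indomethacin 2 (edgeR adjusted p = 0.73 and 0.9998). Tgfa and Egfr overlapped between these groups, at -0.02 ± 0.19 and -0.28 ± 0.28 (SE, edgeR adjusted p = 0.99 and 0.83). The median over the 5 genes, which is the uncalled Areg value, was -1.38, against -0.02 over all tested genes.

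The Hbegf call with honokiol needed both honokiol libraries. It was -3.84 without honokiol plus indomethacin 1 and -3.17 without honokiol plus indomethacin 2, and neither passed (edgeR adjusted p = 0.072 and 0.15). In such fits the lone library is assumed to vary like the other groups. Both honokiol libraries held Y reads, and against the indomethacin library that also did, the log2 ratio was -3.58 for Hbegf, -4.71 for Ereg and -1.47 for Areg. For Ereg the value passed without diclofenac 1 or 2, at -4.70 for each (edgeR adjusted p = 0.010 and 0.0090).

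Against control, honokiol plus indomethacin left none of the 5 genes called, and edgeR called 0 genes of all (816 at an unadjusted p under 0.05), with 0 of the 5 among those 816. DESeq2 called 14 genes, or 0.091%, and 0 of the 5. The honokiol libraries overlapped the controls in Areg, Ereg, Hbegf and Egfr. In Tgfa both lay above both controls, at 16.8 and 16.1 CPM against 13.4 and 14.8 CPM. The share of all genes with groups apart in this way was not counted. Hbegf had a log2 difference of -0.30 ± 0.43 with an interval of -1.24 to 0.64, and Ereg of -0.44 ± 1.04 with an interval of -2.82 to 1.93 (SE, edgeR adjusted p = 0.89 and 0.93). Areg was at -0.21 ± 0.75, Tgfa at 0.22 ± 0.19 and Egfr at 0.34 ± 0.28 (SE). The Ereg levels rest on 9 and 6 counts with honokiol and on 19 and 3 counts in control. The comparison shares libraries with both of those above, and a value near 0 here does not show that the levels were equal.

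**Figure D2:**
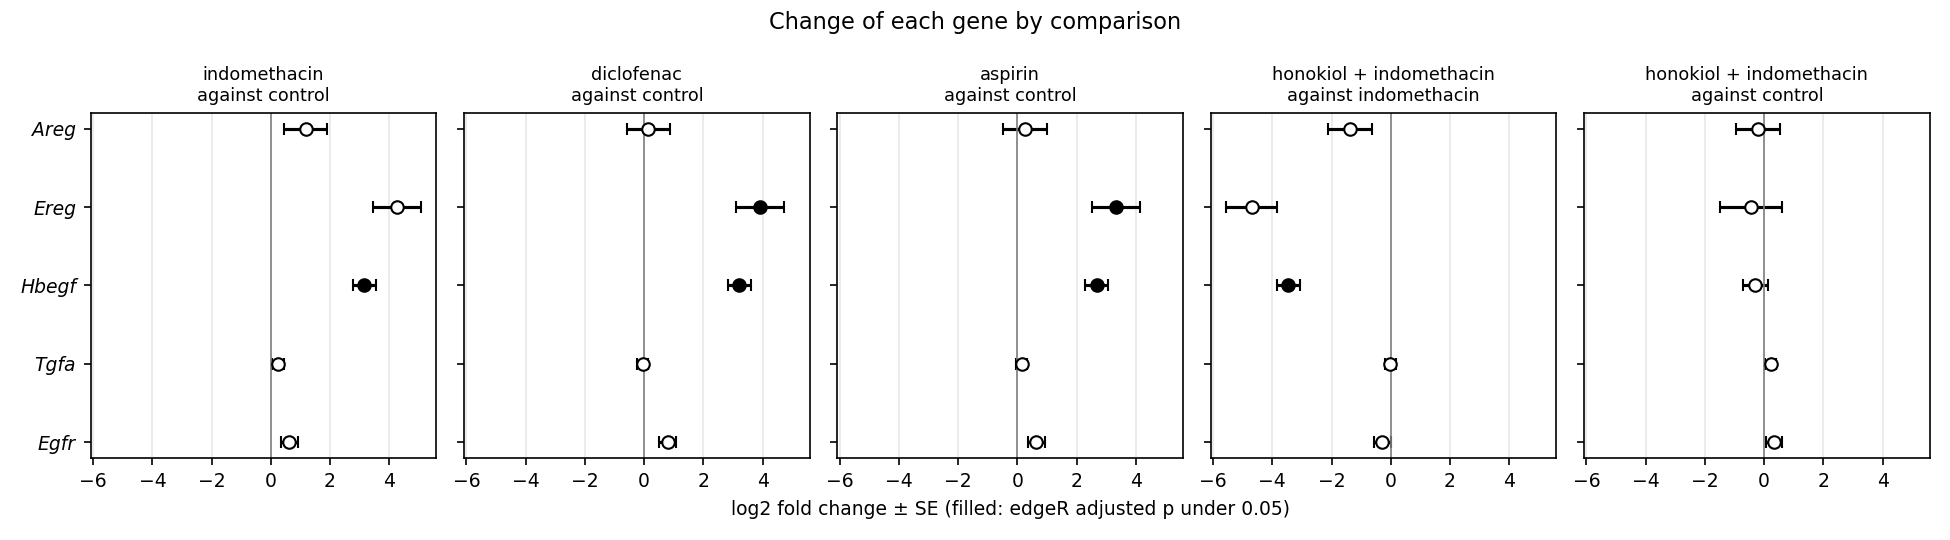
Log2 fold change ± SE of each gene in each comparison named above its panel, with filled points where the edgeR adjusted p is under 0.05. Hbegf is filled for each drug against control and, at -3.45, for honokiol plus indomethacin against indomethacin, and Ereg is filled for diclofenac and aspirin against control.

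In the plot of changes by comparison Ereg lies beyond Hbegf in the drug comparisons, at wider errors. The drugs were also set against each other, at doses that differ. Indomethacin, like diclofenac, is an arylacetic acid, whereas aspirin is the acetyl ester of salicylic acid. None of the 5 genes passed the edgeR test in any of the 3 pairs, and 0 of 5 had an unadjusted p under 0.05 in any of them. DESeq2 called 0 of 5 as well, and of all genes 1.05% between diclofenac and indomethacin, 2.94% between aspirin and indomethacin and 0.035% (7 genes) between aspirin and diclofenac. Over all genes edgeR called 0.0184% between diclofenac and indomethacin, 0.0184% between aspirin and indomethacin, and 0 of 16346 between aspirin and diclofenac (852 at an unadjusted p under 0.05). For Hbegf the log2 difference was 0.06 between diclofenac and indomethacin (95% interval -0.67 to 0.79), -0.48 between aspirin and indomethacin (-1.21 to 0.26) and -0.54 between aspirin and diclofenac (-1.27 to 0.20). For Ereg these were -0.34 (-1.79 to 1.12), -0.93 (-2.41 to 0.55) and -0.59 (-2.07 to 0.89). Areg was lower with diclofenac and aspirin than with indomethacin by point estimate, at -1.03 (-2.74 to 0.68) and -0.92 (-2.63 to 0.80). Without the low-count filter edgeR called both Areg differences, at -1.02 and -0.91 (edgeR adjusted p = 0.0078 and 0.020), and that of Ereg between aspirin and indomethacin, at -0.92 (edgeR adjusted p = 0.047). The limit given above for the unfiltered fit holds for these calls too. Apart from that of Hbegf between diclofenac and indomethacin, each of the 95% intervals above includes a difference of more than 1 log2 unit, so they do not show that the drugs acted alike.

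The order of group means differed by gene. Hbegf averaged 0.871 ± 0.279 CPM with honokiol plus indomethacin, 9.65 ± 1.07 under indomethacin, 10.1 ± 1.76 under diclofenac, 6.90 ± 2.53 under aspirin and 1.08 ± 0.577 for control (SD, n = 2 each). The gap between diclofenac and indomethacin was within the larger SD of that pair, and so was the gap between honokiol plus indomethacin and control. The gaps of 2.74 CPM between aspirin and indomethacin and of 5.82 CPM between aspirin and control exceeded it. The Hbegf difference between aspirin and indomethacin was not called (edgeR adjusted p = 0.43). An SD of 2 libraries is itself poorly bounded, so setting a gap against it describes the order and is not a test. Ereg averaged 0.258 ± 0.0473 CPM with honokiol plus indomethacin, 6.82 ± 0.0957 under indomethacin, 5.40 ± 4.11 under diclofenac, 3.54 ± 1.99 under aspirin and 0.350 ± 0.353 for control (SD, n = 2 each). Among its neighbours in that order only aspirin and control were apart by more than the larger SD. For Areg only indomethacin was apart by more than the larger SD, by 4.94 CPM from aspirin. That Areg difference was not called either (edgeR adjusted p = 0.49). For Tgfa honokiol plus indomethacin and aspirin were 0.847 CPM apart, and aspirin and control 1.51 CPM, each beyond the larger SD. With plain library totals the Tgfa mean was 17.2 CPM in both honokiol plus indomethacin and aspirin, and 12.8 CPM in control. No neighbouring groups of Egfr were apart by more than the larger SD.

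Levels of different genes can be compared per length, as CPM per kb of exon. Summed over the 4 ligands, this was 9.10 and 6.18 with honokiol plus indomethacin, 21.0 and 19.6 with indomethacin, 10.2 and 18.6 with diclofenac, 9.83 and 16.1 with aspirin, and 10.4 and 5.21 in control. Only the indomethacin sums lay well above both controls, since diclofenac 1 and aspirin 1 fell just below control 1. The Hbegf and Ereg shares of the sum were higher in every library of a drug given alone than in the other 4, and the Areg and Tgfa shares overlapped. Hbegf made up 5.09% and 4.73% of the sum with honokiol plus indomethacin, 21.5% and 19.7% with indomethacin, 37.4% and 26.4% with diclofenac, 22.6% and 23.4% with aspirin, and 6.20% and 5.56% in control. Ereg made up 1.53% and 1.73% with honokiol plus indomethacin, 15.3% and 16.7% with indomethacin, 11.6% and 21.3% with diclofenac, 10.3% and 14.7% with aspirin, and 2.76% and 0.916% in control. The Areg share was 52.4% and 35.6% with honokiol plus indomethacin, from 25.4% to 46.2% over the 6 libraries of drugs given alone, and 62.5% and 30.3% in control. The Tgfa share was 40.9% and 58.0% with honokiol plus indomethacin, from 17.0% to 34.3% over the drugs given alone, and 28.6% and 63.2% in control.

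**Figure D3:**
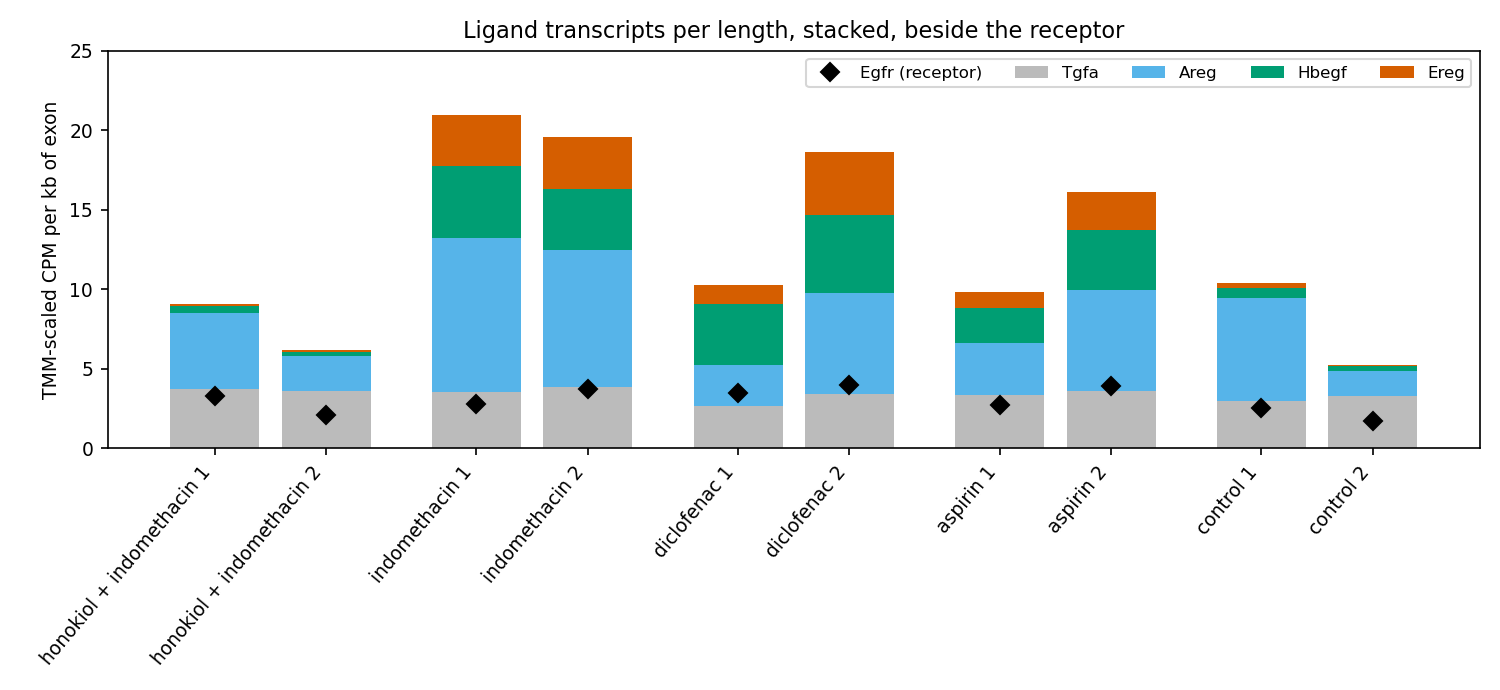
Stacked bars give TMM-scaled CPM per kb of exon for the 4 ligands in each library, from honokiol plus indomethacin to control, and diamonds give Egfr on the same scale. Hbegf and Ereg are thin bands in the honokiol and control libraries, where Hbegf is at most 6.20% of the sum, and at least 19.7% in the libraries of drugs given alone.

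Ratios inside a library do not depend on how libraries are scaled, and the stacked plot of levels per length shows them by eye. The ratio of Hbegf to Egfr per length was 0.141 and 0.139 with honokiol plus indomethacin, 1.61 and 1.03 with indomethacin, 1.09 and 1.24 with diclofenac, 0.825 and 0.965 with aspirin, and 0.255 and 0.167 in control. Hbegf transcripts were thus near the receptor's in number per length with the drugs alone, and well below it in the other libraries. The ratio of Ereg to Egfr was 0.0423 and 0.0510 with honokiol plus indomethacin, 1.15 and 0.875 with indomethacin, 0.340 and 1.004 with diclofenac, 0.378 and 0.604 with aspirin, and 0.113 and 0.0275 in control. The ratio of Tgfa to Egfr ran the other way by range, at 1.13 and 1.71 with honokiol plus indomethacin, from 0.751 to 1.27 over the libraries of drugs given alone and at 1.17 and 1.90 in control, with aspirin 1 and indomethacin 1 overlapping control 1. A ratio shows unequal change of the pair and not which of them changed.

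Within most groups these genes differed in the same direction. The same replicate was higher in Areg, Ereg, Hbegf and Egfr in the honokiol, diclofenac, aspirin and control groups, being replicate 1 for honokiol and control and replicate 2 for diclofenac and aspirin. Indomethacin did not show this: replicate 1 was higher in Areg and Hbegf and replicate 2 in Ereg and Egfr. Tgfa had the same higher replicate as those genes in the honokiol, diclofenac and aspirin groups, and the other in control. The share of all genes that differ in this way was not counted. The ratio of the replicates was largest for Ereg in control, at 5.99, and for Tgfa it stayed within 0.770 to 1.04 in all groups.

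Across the 10 libraries, the log2 CPM of Hbegf was most like that of Ereg among the 5 genes, with Pearson r = 0.98. Positions are among 11187 candidate genes with a mean log2 CPM of 1 or more. The 5 genes were kept as candidates whatever their mean, and that of Ereg, at 0.68, was below this limit. Other genes below it were not ranked. Hbegf stood first among all candidates for Ereg, and Ereg stood at position 3 for Hbegf. Egfr had r = 0.78 with each of them, Areg 0.72 with Ereg and 0.61 with Hbegf, and Tgfa 0.10 and -0.05. The libraries fall into those with and without a high level of these ligands and share library and depth, so the values only describe the pattern.

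The genes next to these on the chromosome were looked at by position, since their names are not paired with the identifiers. Of 24 distinct neighbouring genes, 3 on each side of each gene, 15 were tested. With indomethacin edgeR called 0 of them, with diclofenac 2 higher, and with aspirin 2 higher and 4 lower. Of all tested genes 0.777%, 7.87% and 17.8% were called in these comparisons. The 4 called lower with aspirin were 2 by Tgfa, 1 by Egfr and 1 counted by both Areg and Ereg. Areg and Ereg lie side by side on chromosome 14, where Ereg was called with diclofenac and aspirin and Areg was not. Next to Ereg, the gene from 18626644 to 18634309 had 8 counts in all libraries together, and the gene from 18640277 to 18720357 had a log2 fold change of -1.15 ± 0.54 with diclofenac (SE, edgeR adjusted p = 0.19). The gene beyond it, from 18731378 to 18733391, rose by 7.78 ± 1.47 with diclofenac and 7.03 ± 1.49 with aspirin in log2 units (SE, edgeR adjusted p = 0.027 and 0.025). On the far side of Egfr, the third gene along, from 100151210 to 100217913, rose by 2.11 ± 0.45 with diclofenac and 2.24 ± 0.45 with aspirin (SE, edgeR adjusted p = 0.019 and 0.012). No tested neighbour of Hbegf was called in any comparison.

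**Figure D4:**
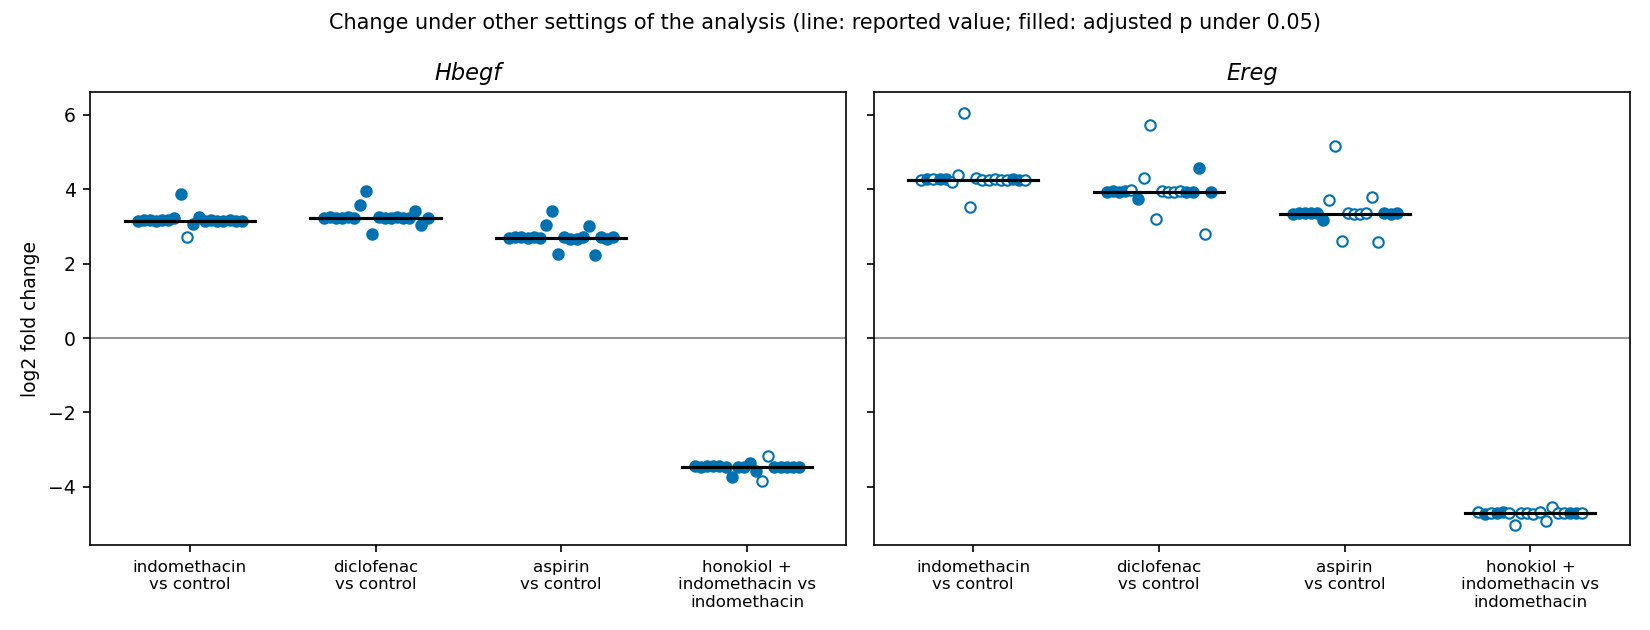
Log2 fold change of Hbegf and Ereg in 4 comparisons under each of 18 alternative settings (points, filled where the adjusted p is under 0.05), beside the reported value (line). Every Hbegf and Ereg value keeps the sign of its line, and the points of Ereg against control spread from 2.57 to 6.06.

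The plot of changes under other settings gives the spread behind these calls. Hbegf was called in 17 of 18 alternatives with indomethacin, in 18 of 18 with diclofenac and aspirin, and in 16 of 18 for honokiol plus indomethacin against indomethacin. Ereg was called in 5, 9, 9 and 5 of the 18 in the same order of comparisons.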

How the data were processed

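Per the labels' protocols, total RNA of gastric mucosa was depleted of ribosomal RNA and sequenced as stranded paired ends. The deposited values are raw counts per gene, with columns of gene length (nt) and exon coordinates laid out as by featureCounts per the file headers. The submitters' processing notes name HISAT2 2.1.0, featureCounts, SAMtools, cutadapt 1.16, FastQC 0.11.7, DESeq2 and bcl2fastq. No source used here gives the build, the strand setting or the treatment of multiply matching reads, so reads of antisense or overlapping genes may be mixed.

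From the deposited counts, edgeR 4.0.16 (R 4.3.3) was run on all 10 libraries with TMM factors, filterByExpr (minimum count 10, minimum total 15), robust quasi-likelihood F tests and group as the only term, which left 5 residual degrees of freedom and 16346 tested genes. The call threshold was 0.05 on the p adjusted over all of them by Benjamini-Hochberg. Standard errors are the log2 fold change divided by the square root of F, and 95% intervals use the moderated degrees of freedom. Levels are TMM-scaled CPM, and levels per length divide by the deposited gene length. Depth ran from 23892226 to 44977459 counts, and Poisson intervals cover counting error only.

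The 5 genes, their lists and the motifs were chosen with earlier results of these data known. The naming rule took the 5 genes in every comparison, with lists of pathway genes and cell type markers by symbol. Since 0 identifiers matched the RefSeq table, the lists were not applied, and the neighbouring genes by position were described instead, as the rule provided. Y reads were taken as over 1000 counts on Y-chromosome features with at least 50 counts in all. Alternatives were RLE factors, plain totals, no or a stricter filter (at least 1 CPM and 10 counts in 2 libraries), DESeq2 1.42.0, only the groups compared, a Y-read term, a replicate block and each library left out. Leaving out mitochondrial features, and ratios within libraries, were added after seeing the data. A sequence for Ereg was not used here.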

Additional observations from a re-analysis of the deposited data

How the results depend on the processing

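Of the single-gene values under the alternatives, 657 kept their direction and side of the threshold, 21 lost the call, 16 gained it and 25 changed sign, none of these last called. Without the low-count filter edgeR called 3 of the 5 genes with indomethacin (834 of all genes) and 3 for honokiol plus indomethacin against indomethacin (699), 1 for diclofenac against indomethacin (872) and 2 for aspirin against indomethacin (1414). All genes called were then 2650 with diclofenac, 153 for honokiol plus indomethacin against control and 140 for aspirin against diclofenac. As stated under Areg, the p-values of the unfiltered fit make almost no allowance for having 2 libraries a group. DESeq2 called 2 of the 5 with indomethacin (376 of all) and 2 for honokiol plus indomethacin against indomethacin (235). Its counts of all genes were 14 for honokiol plus indomethacin against control, 162 for diclofenac against indomethacin, 439 for aspirin against indomethacin and 7 for aspirin against diclofenac. With only the 2 groups compared in the fit, 2 of the 5 were called with indomethacin (262 of all), 1 with diclofenac (527), and 2 for honokiol plus indomethacin against indomethacin (250). The other counts of all genes were 1759 with aspirin, 3 for honokiol plus indomethacin against control, 60 for diclofenac against indomethacin and 57 for aspirin against indomethacin. The Y-read term left 1 of the 5 with diclofenac (383 of all) and 1 with aspirin (683). It gave 35 genes for honokiol plus indomethacin against indomethacin, 1 for aspirin against indomethacin, and 0.0487 as the Tgfa log2 difference for honokiol plus indomethacin against indomethacin. The causes were not tested.

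Leaving out 1 library gave 0 to 2 of the 5 with indomethacin (1 to 200 of all genes), 1 to 2 with diclofenac (319 to 1434), 1 to 2 with aspirin (462 to 3606), and 0 to 2 for honokiol plus indomethacin against indomethacin (0 to 118). Of all genes, 0 to 1 were called for honokiol plus indomethacin against control, 0 to 63 for diclofenac against indomethacin, 2 to 570 for aspirin against indomethacin and 0 to 27 for aspirin against diclofenac. Log2 values whose sign changed ran from -0.63 to 1.53 with diclofenac and -0.38 to 1.65 with aspirin for Areg, and from -0.26 to 0.15 with diclofenac for Tgfa. For honokiol plus indomethacin against indomethacin they ran from -0.0899 to 0.0367 for Tgfa and from -0.65 to 0.00087 for Egfr. For honokiol plus indomethacin against control they ran from -0.88 to 1.157 for Areg, -1.19 to 1.35 for Ereg, -0.75 to 0.40 for Hbegf and -0.0285 to 0.65 for Egfr. For diclofenac against indomethacin they ran from -1.45 to 0.30 for Ereg, -0.13 to 0.25 for Hbegf and -0.00683 to 0.41 for Egfr. For aspirin against indomethacin Egfr ran from -0.29 to 0.25. For aspirin against diclofenac they ran from -0.48 to 0.89 for Areg, -1.35 to 0.52 for Ereg and -0.48 to 0.0688 for Egfr.

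Deviations of same-numbered libraries correlated between -0.26 and 0.30 over 10 pairs of groups, so no pairing common to all groups was seen. Correlations were 0.13, 0.14 and 0.30 among control, indomethacin and honokiol plus indomethacin, and 0.22 between aspirin and diclofenac. Between these sets of groups they ran from -0.26 to -0.10. Sharing by replicate number within a set was not tested. With the replicate number as a block, 1, 2, 2 and 1 of the 5 were called in the 3 drug comparisons and honokiol plus indomethacin against indomethacin, the same counts as without. The block gave 123, 935, 2106 and 71 of all genes. It is 1 term common to all groups, so it cannot take up deviations that are opposed between the sets. With plain library totals 21 of 25 group means moved by less than 1 SD and 4 by more. Those that moved by more were Tgfa in control, aspirin and honokiol plus indomethacin, and Ereg in indomethacin. With 2 libraries a group and 3 to 19 counts of Ereg in honokiol and control libraries, the size of its fold changes is poorly bounded.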
